A study of Mus musculus with 4 samples.

Results

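Transcripts of 9 receptors of the tumour necrosis factor (TNF) receptor superfamily were followed in mouse kidney after cisplatin: Tnfrsf1a, Tnfrsf1b, Tnfrsf9, Tnfrsf10b, Tnfrsf12a, Tnfrsf21, Tnfrsf23, Fas and Cd40. They were picked by symbol, with earlier results of these data known, and are 9 of the 29190 genes in the count table, each with a single row. Whole kidney RNA came from male C57 mice aged 8 weeks, given either cisplatin at 30 mg/kg (2 libraries) or physiological saline (2 libraries). The cisplatin animals of the study were killed 24 h or 48 h after injection, and the sources used here do not say which time these libraries stand for. The groups carry no other treatment or allele per the labels, the 2 libraries of a group are described as biological replicates, and the sources do not say whether a library holds 1 animal or several. P-values therefore measure the spread between these libraries.

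Receptors of this family bind trimeric ligands such as TNF, TRAIL and Fas ligand through cysteine-rich repeats outside the cell. Some carry a death domain in the cytoplasm, through which adaptors such as TRADD and FADD can start either NF-kB signalling or caspase-8 activation and cell death. Others lack that domain and bind TRAF adaptors directly, and decoy receptors bind ligand without passing a signal on. In the kidney the TNF receptors have been studied as mediators of tubule injury and inflammation.

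Cisplatin kidneys carried more transcript of 8 of the 9 receptors and less of Tnfrsf21. The rises ran from about 2.36-fold for Cd40 to 26.9-fold for Tnfrsf23, and Tnfrsf21 stood 3.23-fold lower. All 9 passed the threshold in edgeR's quasi-likelihood fit (n = 2 libraries a group). The weakest of them, Tnfrsf9, had a Benjamini-Hochberg adjusted p of 9.39e-05. Calls were common in these data: of 17419 genes tested, 73.6% were called, 37.2% as higher and 36.4% as lower. For each of the 9 the values of the groups stayed apart, which was also so for 86.3% of all tested genes, so neither count sets the receptors apart. The size of the changes was less common. Each of the 8 rises was at least 2-fold, as for 19.2% of tested genes, and 3 were at least 10-fold, as for 2.57%. The median log2 fold change of the 9 receptors was 2.22, beside 0.04 for all tested genes. Tnfrsf9 and Tnfrsf23 had so few saline counts that they reached the test through the cisplatin libraries. Their direction was thus fixed by the filter on low counts, which asks for 0.448 CPM, by library size alone, in at least 2 libraries. The rises of Tnfrsf9 and Tnfrsf23 are part of the counts by size and of the median given above. Of the other 7 receptors 6 were called higher and 1 lower, with Tnfrsf1a, at a log2 fold change of 1.53, in the middle. Of these, Tnfrsf12a and Tnfrsf10b rose at least 10-fold.

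The libraries held 20662475 and 23150274 counts after cisplatin and 21483564 and 27122403 after saline. By library size alone 3 counts, the limit that a count of 0 allows, stand for 0.111 to 0.145 CPM (counts scaled to library size). Libraries were scaled by TMM, the trimmed mean of M values, and the CPM given for genes are on that scale. There 3 counts stand for 0.162 and 0.123 CPM in saline replicates 1 and 2. With library size alone the median of all tested genes moved from 0.04 to 0.41, and 52.3% of them were called higher and 24.2% lower. Under that scaling too the 8 receptors were called higher and Tnfrsf21 lower.

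**Figure D1:**
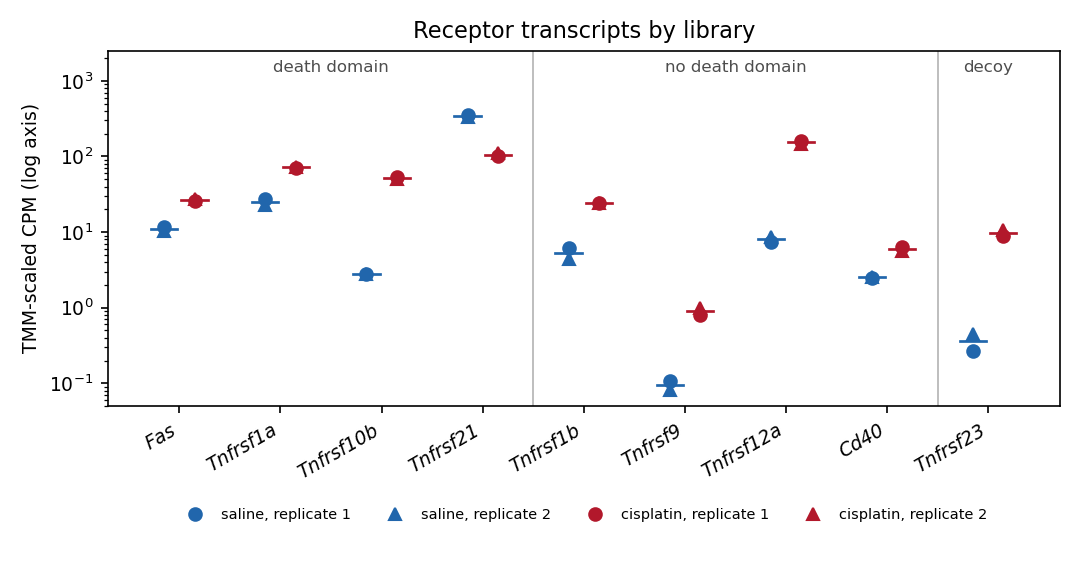
Level of each receptor transcript in each library, as TMM-scaled CPM on a log axis; circles and triangles are replicates 1 and 2, short lines the group means, and the receptors are ordered by kind. In 8 receptors both cisplatin libraries lie above both saline libraries, and for Tnfrsf21 both lie below, at 101 and 110 against 353 and 328 CPM.

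**Figure D2:**
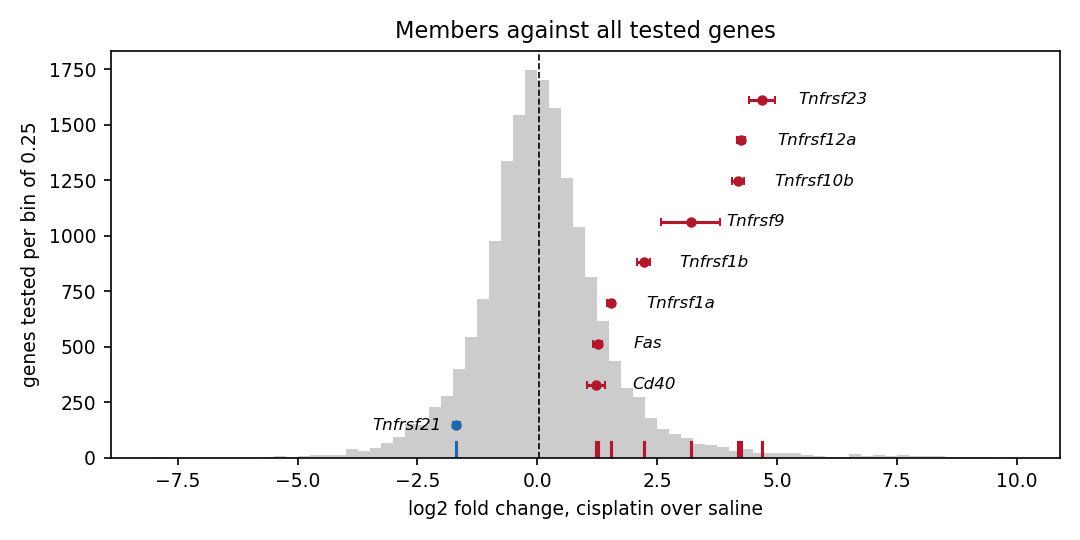
Log2 fold changes of the 9 receptors (points, with 1 standard error as bars, at arbitrary heights) over the histogram of all 17419 tested genes in bins of 0.25; the dashed line is the median of all tested genes. Tnfrsf23, Tnfrsf12a and Tnfrsf10b lie in the right tail at 4.69, 4.25 and 4.19, and Tnfrsf21 on the left at -1.69.

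Because most of these genes moved the same way, the 250 bases upstream of their RefSeq transcription starts were searched for short motifs. These were the NF-kB, AP-1 and p53 motifs, the GC box and the TATA box. RefSeq promoter entries on GRCm38.p6 matched 7 of the 9 receptors, in 8 windows, and not Cd40 and Tnfrsf10b. By the gene coordinates given below, the Tnfrsf1a window and the Tnfrsf9 windows lie within their genes. In the Tnfrsf1a window 36 bases are annotated as exon. Both strands were read, and overlapping matches counted as 1 site. The stretches shown are those of the largest and the second largest rise, of Fas, which held an AP-1 motif, and of Tnfrsf21, the receptor that fell. Capitals mark the AP-1 motif TGANTCA and the GC box GGGCGG, in either orientation. The Tnfrsf12a stretch is shortened to 231 bases, since the annotation places an exon in the rest.
Tnfrsf23 (chr7:143685876-143686125, minus strand): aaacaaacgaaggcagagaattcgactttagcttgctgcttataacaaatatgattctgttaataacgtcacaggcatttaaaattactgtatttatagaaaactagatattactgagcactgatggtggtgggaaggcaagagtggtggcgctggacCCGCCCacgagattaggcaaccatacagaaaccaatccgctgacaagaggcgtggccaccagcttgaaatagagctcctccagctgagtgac
Tnfrsf12a (chr17:23677469-23677699, minus strand): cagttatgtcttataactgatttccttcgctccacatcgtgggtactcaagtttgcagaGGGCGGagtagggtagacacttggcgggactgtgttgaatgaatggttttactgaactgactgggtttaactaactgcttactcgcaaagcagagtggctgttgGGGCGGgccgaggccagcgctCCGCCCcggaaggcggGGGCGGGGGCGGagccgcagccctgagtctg
Fas (chr19:34290409-34290658, plus strand): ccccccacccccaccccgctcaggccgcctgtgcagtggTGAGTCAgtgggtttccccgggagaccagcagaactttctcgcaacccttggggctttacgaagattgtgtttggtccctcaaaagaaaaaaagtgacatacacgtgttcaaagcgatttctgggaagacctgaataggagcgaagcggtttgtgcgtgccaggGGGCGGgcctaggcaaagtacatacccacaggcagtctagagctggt
Tnfrsf21 (chr17:43016305-43016554, plus strand): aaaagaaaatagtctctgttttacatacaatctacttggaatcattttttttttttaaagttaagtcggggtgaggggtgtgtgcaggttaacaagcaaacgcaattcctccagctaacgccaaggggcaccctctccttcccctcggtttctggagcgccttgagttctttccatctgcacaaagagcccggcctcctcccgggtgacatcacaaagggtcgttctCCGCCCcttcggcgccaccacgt
The Tnfrsf12a window held 5 GC boxes, between 191 and 39 bases before the start, and the Tnfrsf1b window held 2. Those of Tnfrsf23, Fas and Tnfrsf21 and the first Tnfrsf9 window held 1 each, so that 6 of the 8 windows had one. A GC box was present in 33.0% of the 32526 upstream windows of the table. TGANTCA was found for Fas, 211 to 205 bases upstream, and in the second of the 2 windows of Tnfrsf9, and 6.73% of all windows held it. That Tnfrsf9 window also held the NF-kB consensus as GGGGATTTCCC, 43 to 33 bases upstream, against 7.28% of all windows. Its last 81 bases, where both motifs lie, are annotated as exon. TATAAA was found in the Tnfrsf23 window, 158 to 153 bases upstream, against 12.3% of all windows. None of the 8 windows held a full p53 site, which was found in 0.0646% of all windows. With so rare a motif, its absence from 8 short windows cannot show whether these genes have p53 sites. These are matches of letters in short windows and were not tested against the expression changes.

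Among the receptors with a death domain, Tnfrsf1a is the main signalling receptor for soluble TNF. Tnfrsf1a (ENSMUSG00000030341.15, chromosome 6, 125349362 to 125362484, plus strand, GRCm38) had 1675 and 1896 counts after cisplatin and 502 and 560 after saline, or 70.6 and 73.1 against 27.2 and 22.9 CPM. Its log2 fold change was 1.53 (SE 0.08), with an adjusted p of 8e-13 by the same edgeR fit and Benjamini-Hochberg adjustment. Both cisplatin libraries stood well above both saline libraries, and the gap was many times the spread within either pair.

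Fas, the receptor of Fas ligand and a transcriptional target of p53, changed less than most. Fas (ENSMUSG00000024778.10, chromosome 19, 34290666 to 34327772, plus strand) stood at 25.5 and 27.1 CPM after cisplatin and at 11.6 and 10.4 CPM after saline. The log2 fold change was 1.26 (SE 0.10; edgeR quasi-likelihood, adjusted p = 1.31e-09). A small RNA gene, Gm27818, lies on the same strand within Fas, with at most 3 counts in any library against at least 214 for Fas.

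Tnfrsf10b is the only mouse receptor that passes on the death signal of TRAIL, and it too is a p53 target. Tnfrsf10b (ENSMUSG00000022074.5, chromosome 14, 69767472 to 69784411, plus strand) had 1255 and 1288 counts after cisplatin against 51 and 69 after saline, which is 52.9 and 49.7 against 2.76 and 2.83 CPM. The log2 fold change was 4.19 (SE 0.12; edgeR quasi-likelihood, adjusted p = 5.5e-17), larger than that of 98.4% of tested genes. Per unit of length Tnfrsf10b lay far below Fas in saline kidneys, with an FPKM ratio of 0.136 and 0.154, and came near it after cisplatin, at 1.18 and 1.04. By counts per exon base Tnfrsf10b stayed below Fas after cisplatin too, with 5.81 and 5.53% of the summed level of the 9 receptors against 7.39 and 7.97%. The groups did not overlap in this ratio, for which the exact two-sided permutation p was 0.333, the smallest that 2 against 2 libraries allow. The same p holds for each of the 6 ratios between receptor genes that were computed, before and after Benjamini-Hochberg adjustment.

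Tnfrsf21, also called death receptor 6, has a death domain and is best known from neurons and lymphocytes. It was the receptor of the 9 with the highest level in saline kidneys and the only one that fell. Tnfrsf21 (ENSMUSG00000023915.4, chromosome 17, 43016555 to 43089189, plus strand) had 2386 and 2856 counts after cisplatin against 6523 and 8015 after saline, or 101 and 110 against 353 and 328 CPM. The log2 fold change was -1.69 (SE 0.07; edgeR quasi-likelihood, adjusted p = 8.67e-15), and 7.1% of tested genes had a lower value. In the same libraries all 13 proximal tubule markers examined fell, with a summed level of 19768 and 20203 CPM after saline and 3236 and 3234 CPM after cisplatin. Of 11 markers of the thick limb, distal tubule and collecting duct, 9 fell and 1 rose. Over all tested genes 36.4% were called lower. Which cells hold Tnfrsf21 cannot be read from whole kidney RNA, where fewer cells of a type and less RNA per cell cannot be told apart, and the part of these markers in its fall was not tested.

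Of the signalling receptors without a death domain, Tnfrsf12a had the largest fold. It encodes Fn14, a small receptor of the cytokine TWEAK that is induced in injured epithelium. Tnfrsf12a (ENSMUSG00000023905.12, chromosome 17, 23675445 to 23677468, minus strand) had 3786 and 3828 counts after cisplatin against 136 and 210 after saline, that is 160 and 148 against 7.36 and 8.60 CPM. The log2 fold change was 4.25 (SE 0.08; edgeR quasi-likelihood, adjusted p = 2.69e-19). The groups stayed far apart, and the value was close to that of Tnfrsf10b.

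Tnfrsf1b is the second TNF receptor, found on leukocytes and endothelium and induced in injured tubules, and it binds TRAF2. Tnfrsf1b (ENSMUSG00000028599.8, chromosome 4, 145213463 to 145246870, minus strand) stood at 23.9 and 24.6 CPM after cisplatin and at 6.17 and 4.38 CPM after saline; its log2 fold change was 2.22 (SE 0.13; edgeR quasi-likelihood, adjusted p = 1.04e-11). It remained the scarcer of the TNF receptors. Its FPKM was 0.128 and 0.108 of that of Tnfrsf1a in the saline libraries and 0.191 and 0.190 in the cisplatin libraries. The log2 ratio of their counts was 0.70 higher after cisplatin, without overlap between the groups.

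Cd40, which licenses antigen-presenting cells and is also found on tubule epithelium, rose by the least. Cd40 (ENSMUSG00000017652.14, chromosome 2, 165055627 to 165072948, plus strand) had 149 and 145 counts after cisplatin and 46 and 62 after saline, or 6.28 and 5.59 against 2.49 and 2.54 CPM. The log2 fold change was 1.23 (SE 0.19; edgeR quasi-likelihood, adjusted p = 1.15e-05). The groups did not overlap, and Cd40 stayed a low-level transcript in both.

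Tnfrsf9, known as 4-1BB or CD137, is a costimulatory receptor of activated T and NK cells. Tnfrsf9 (ENSMUSG00000028965.11, chromosome 4, 150914562 to 150946102, plus strand) was the rarest of the 9, with 19 and 26 counts after cisplatin and 2 in each saline library. With TMM-scaled library sizes, as for all such ratios here, the ratio over both libraries was 9.72, with a 95% exact counting interval of 3.54 to 37.2. The log2 fold change was 3.20 (SE 0.61, edgeR quasi-likelihood, adjusted p = 9.39e-05). Tnfrsf9 overlaps Camta1 on the opposite strand, and the sources do not say whether strand was used in counting. Camta1 had 83 and 122 counts after cisplatin and 139 and 165 after saline, and so was not higher in both cisplatin libraries.

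Markers of leukocytes moved in the same libraries as these receptors. Of 15 markers of macrophages and monocytes, 12 were called higher and 1 lower. Of the 12, Cd163 reached the test through the cisplatin libraries alone, which fixed its direction. The summed level of the 15 was 122 and 129 CPM after saline and 296 and 314 CPM after cisplatin. All 8 tested neutrophil markers of 12 rose, from a sum of 5.47 and 3.40 to 38.2 and 36.4 CPM, with Ly6g, Camp and Ngp at 0 counts in the saline libraries. Of those 8, 4 reached the test through the cisplatin libraries alone, which fixed their direction (S100a8, Mmp8, Mmp9 and Retnlg). Of 10 tested T and NK cell markers of 14, 4 rose, 3 of which reached the test through the cisplatin libraries alone, the sums being 9.09 and 7.38 against 9.15 and 9.87 CPM. That number was 1 without cisplatin replicate 1 or saline replicate 2, and 2 without cisplatin replicate 2. Of 8 dendritic cell markers 3 rose, from sums of 25.3 and 26.5 to 34.2 and 36.1 CPM, and without cisplatin replicate 2 or saline replicate 2 that number was 1. Among the dendritic cell markers Ccr7, called higher, and Siglech, not called, reached the test through the cisplatin libraries alone. The counts of the T and NK cell list and the dendritic cell list are near the 37.2% of all tested genes called higher. With DESeq2 each of these lists had 1 called higher. The T and NK cell number was 1 with limma on log2(FPKM + 0.1) and 5 on log2(FPKM + 1). Of 8 B and plasma cell markers 4 were tested and 3 rose, 2 of them tested through the cisplatin libraries alone, from 2.76 and 3.28 to 6.41 and 6.25 CPM. Among resident cells 7 of 10 endothelial markers rose and 2 fell, and 8 of 10 fibroblast and mural markers rose and 1 fell. No endothelial marker was called lower with library size alone or with limma on log2(FPKM + 0.1) or log2(FPKM + 1). The fibroblast and mural fall was not called on log2(FPKM + 1). Sums were 668 and 658 against 840 and 861 CPM for the former, and 443 and 451 against 1198 and 1203 CPM for the latter. All 6 podocyte markers rose, from 401 and 398 to 609 and 634 CPM. The part of any of these cells in the receptor changes was not tested. The fall among macrophage markers was of Csf1r and was not called without cisplatin replicate 1 or saline replicate 2. Nor was it called with upper-quartile scaling, library size alone, or limma on log2(FPKM + 0.1) or log2(FPKM + 1).

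Tnfrsf23 encodes a mouse decoy receptor of TRAIL that has no cytoplasmic signalling domain, and it had the largest rise of the 9. Tnfrsf23 (ENSMUSG00000037613.13, chromosome 7, 143665809 to 143685872, minus strand) had 210 and 274 counts after cisplatin against 5 and 11 after saline, or 8.86 and 10.6 against 0.271 and 0.451 CPM. The log2 fold change was 4.69 (SE 0.27; edgeR quasi-likelihood, adjusted p = 4.82e-12), and the ratio over both libraries was 26.1 with a 95% exact counting interval of 15.9 to 46.1. An antisense gene, E230032D23Rik, overlaps it. No row of the count table carries that symbol, and the sources do not say whether strand was used in counting. Of the 75-base words in its annotated transcripts 13.7% also occur in other genes, nearly all of them in its neighbour Tnfrsf22, so that some reads could have been counted for either. That share was 2.53% for Tnfrsf10b, 0.07% for Tnfrsf21 and 0 for the other 6 receptors. Reads were 150 bases long per the labels, and shares for words of that length were not computed.

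The position of Tnfrsf23 allowed a comparison with close relatives. It lies 16.1 kb from Tnfrsf22, another decoy receptor of TRAIL, which in turn lies 6.1 kb from Tnfrsf26, a related receptor. Tnfrsf22 stood at 69.4 and 61.5 CPM after cisplatin and at 70.0 and 68.1 CPM after saline, and its log2 fold change of -0.08 (SE 0.06) did not pass the test (edgeR quasi-likelihood, adjusted p = 0.284). With library size alone, without a composition factor, it was 0.29 and passed. Tnfrsf26 rose from 1.52 and 2.29 to 5.82 and 5.55 CPM. The FPKM ratio of Tnfrsf23 to Tnfrsf22 was 0.0110 and 0.0185 in the saline libraries and 0.364 and 0.492 in the cisplatin libraries, so the 3 neighbours did not change in step. On chromosome 6, Tnfrsf1a lies 35.5 kb from Ltbr, the lymphotoxin beta receptor. Ltbr rose from 42.7 and 45.3 to 53.1 and 53.4 CPM, a log2 fold change of 0.27 (SE 0.07), and the log2 ratio of Tnfrsf1a to Ltbr was 1.25 higher after cisplatin. On chromosome 4 the nearest gene of the family to Tnfrsf1b is Tnfrsf8, at 20.3 kb, which had at most 7 counts in any library and was not tested.

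The make-up of receptor transcripts within a library does not depend on how libraries are scaled to each other. Levels were compared between genes as FPKM, the authors' deposited values scaled by transcript length and library. Tnfrsf21 made up 76.3 and 76.0% of the summed FPKM of the 9 receptors in the saline libraries and 10.2 and 11.5% in the cisplatin libraries. Tnfrsf12a went the other way, from 5.99 and 7.50% to 61.0 and 58.0%. Fas stood at 5.04 and 4.87% against 5.20 and 5.69%, and Tnfrsf10b went from 0.687 and 0.752% to 6.14 and 5.93%. With counts divided by annotated exon length in place of FPKM, chosen after seeing the data, Tnfrsf21 held a mean of 79.1 and 15.5% in saline and cisplatin and Tnfrsf12a 3.96 and 47.9%. The direction of these genes was unchanged, while the saline share of Tnfrsf12a was over 1.5 times smaller than by FPKM. By that measure Fas rose in share, from a mean of 5.09 to 7.68%. The summed FPKM of the 9 was 69.8 and 71.8 after saline and 190 and 181 after cisplatin. Without Tnfrsf21 it was 16.5 and 17.2 against 171 and 161. Unlike the shares, these sums depend on how libraries are scaled to each other, and they depend on the length measure too. The median log2 fold change of all tested genes was 0.28 with limma on log2(FPKM + 0.1), beside 0.04 in the main fit. A change in total receptor transcript was not tested.

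**Figure D3:**
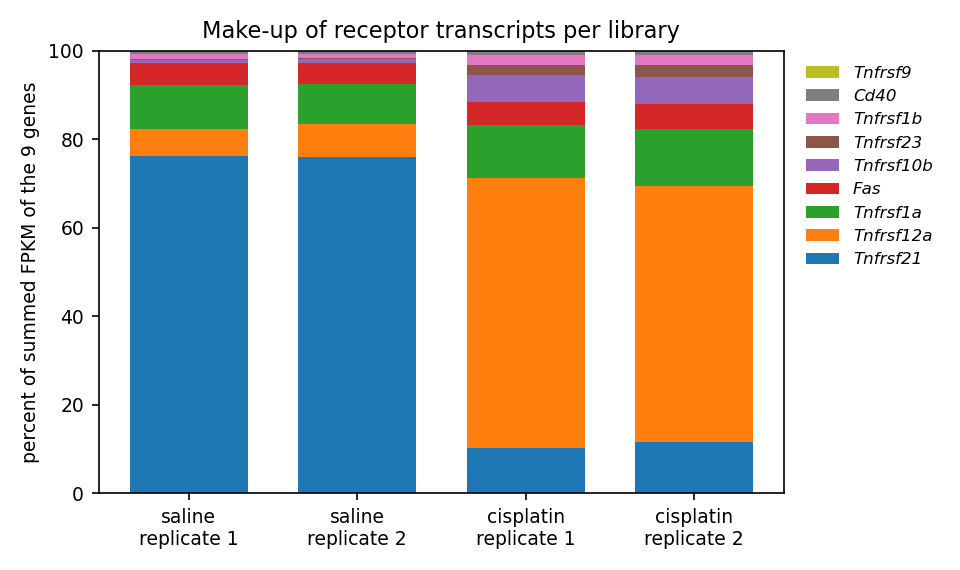
Percent of the summed FPKM of the 9 receptor genes taken by each gene, as 1 stacked bar for each library. Tnfrsf21 fills 76.3 and 76.0% of the saline bars, and Tnfrsf12a 61.0 and 58.0% of the cisplatin bars.

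The order of levels changed accordingly. In saline kidneys it was Tnfrsf21 at a mean of 53.9 FPKM, then Tnfrsf1a at 6.66, Tnfrsf12a at 4.79, Fas at 3.51, Tnfrsf1b at 0.785, Tnfrsf10b at 0.510, Cd40 at 0.485, Tnfrsf23 at 0.140 and Tnfrsf9 at 0.020. Only Tnfrsf10b and Cd40 overlapped as neighbours in that order. After cisplatin it was Tnfrsf12a at 111 FPKM, then Tnfrsf1a at 23.1, Tnfrsf21 at 20.1, Tnfrsf10b at 11.2, Fas at 10.1, Tnfrsf23 at 4.56, Tnfrsf1b at 4.40, Cd40 at 1.38 and Tnfrsf9 at 0.255. Here Tnfrsf23 and Tnfrsf1b overlapped. By counts per exon base 4 neighbouring pairs stood the other way round. In saline Fas (5.09%) was above Tnfrsf12a (3.96%) and Cd40 (0.706%) above Tnfrsf10b (0.490%), and after cisplatin Fas (7.68%) was above Tnfrsf10b (5.67%) and Tnfrsf1b (3.83%) above Tnfrsf23 (1.48%). The order within these pairs therefore depends on the length measure. By either measure Tnfrsf1a kept the second place in both groups and Tnfrsf9 the last.

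The other receptors of the family formed a list of 19 genes. Among the 13 that could be tested, 9 rose, 1 fell and 3 missed the threshold. The median log2 fold change was 1.27 beside 0.04 for all tested genes, of which 37.2% were called higher and 36.4% lower. Of the list 6 were too scarce to test. Of the 13, 5 reached the test through the cisplatin libraries alone and 4 of these were called higher, Tnfrsf18, Tnfrsf4, Tnfrsf13b and Relt. Edar reached it through the saline libraries alone. Among the other 7, 5 rose and none fell. Eda2r, the receptor of ectodysplasin A2 and a p53 target, rose from 1.89 and 2.34 to 66.3 and 70.0 CPM. Its log2 fold change of 4.99 (SE 0.11) was close to that of Tnfrsf23, and the difference between the 2 genes was not tested. Tnfrsf18, a costimulatory receptor of T cells known as GITR, had 82 and 96 counts after cisplatin and 2 and 1 after saline. Its ratio over both libraries was 51.3, with a 95% exact counting interval of 17.3 to 251. The fitted log2 fold change of 5.57 went to 6.27 without saline replicate 1 and to 4.98 without saline replicate 2. Ngfr, the low-affinity neurotrophin receptor, rose from 0.758 and 0.656 to 2.19 and 2.82 CPM. The gene that fell was Edar, the receptor of ectodysplasin A1, from 29 and 39 counts to 9 in each cisplatin library. The number that rose was 7 without cisplatin replicate 1 and with DESeq2. In the summed FPKM of all 28 receptors Tnfrsf21 held 57.6 and 56.0% after saline, and Tnfrsf12a 48.9 and 46.5% after cisplatin.

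The ligands did not move as a block. Of 19 ligand genes 12 were tested, of which 6 rose, 2 fell and 4 did not pass (median log2 fold change 0.80). Over all tested genes 37.2% were called higher and 36.4% lower. Of the 12, 5 reached the test through the cisplatin libraries alone, Tnf, Fasl, Tnfsf8, Tnfsf9 and Tnfsf13, and 3 of these were called higher. The summed level of the list fell from 103 and 103 to 70.5 and 72.8 CPM. The sum is led by Tnfsf10, which encodes TRAIL. Tnfsf10 fell from 83.9 and 83.3 to 40.8 and 41.0 CPM. Its log2 fold change was -1.03 (SE 0.06, edgeR quasi-likelihood, adjusted p = 5.79e-12). Of its receptors Tnfrsf10b and Tnfrsf23 rose, while the decoy receptor Tnfrsf22 was not called, at -0.08 (SE 0.06). Tnf rose from 0.216 and 0.164 to 2.74 and 3.24 CPM, with 4 counts in each saline library, a log2 fold change of 3.97 (SE 0.41) beside 1.53 for Tnfrsf1a and 2.22 for Tnfrsf1b. Tnfsf12, the TWEAK ligand of Tnfrsf12a, stood at 2.61 and 3.82 against 3.46 and 2.21 CPM, with overlapping groups and a log2 value of 0.21 (SE 0.26; edgeR quasi-likelihood, adjusted p = 0.465). Fasl had 25 and 13 counts against 6 and 11, and its log2 fold change of 0.95 (SE 0.50) did not pass the test (adjusted p = 0.0933 by the same method). With library size alone both passed, at 0.58 and 1.31. Tnfsf9, the ligand of Tnfrsf9, had 14 and 12 counts against 3 and 3 and rose (log2 fold change 1.86, SE 0.62), a call that was lost on leaving out any of the 4 libraries and with DESeq2. Cd40lg had at most 2 counts in any library and was not tested. Tnfsf8, the ligand of Tnfrsf8, had 38 and 48 counts against 0 and 2, a ratio of 37.1 with a 95% exact counting interval of 9.98 to 312. Its fitted log2 fold change of 5.06 went to 4.30 without saline replicate 1 and to 8.30 without saline replicate 2. Leaving out cisplatin replicate 1 or cisplatin replicate 2 left 4 ligands called higher. The second ligand that fell, Tnfsf15, was not called without cisplatin replicate 2 or saline replicate 2, nor with upper-quartile scaling, library size alone, DESeq2 or FPKM.

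**Figure D4:**
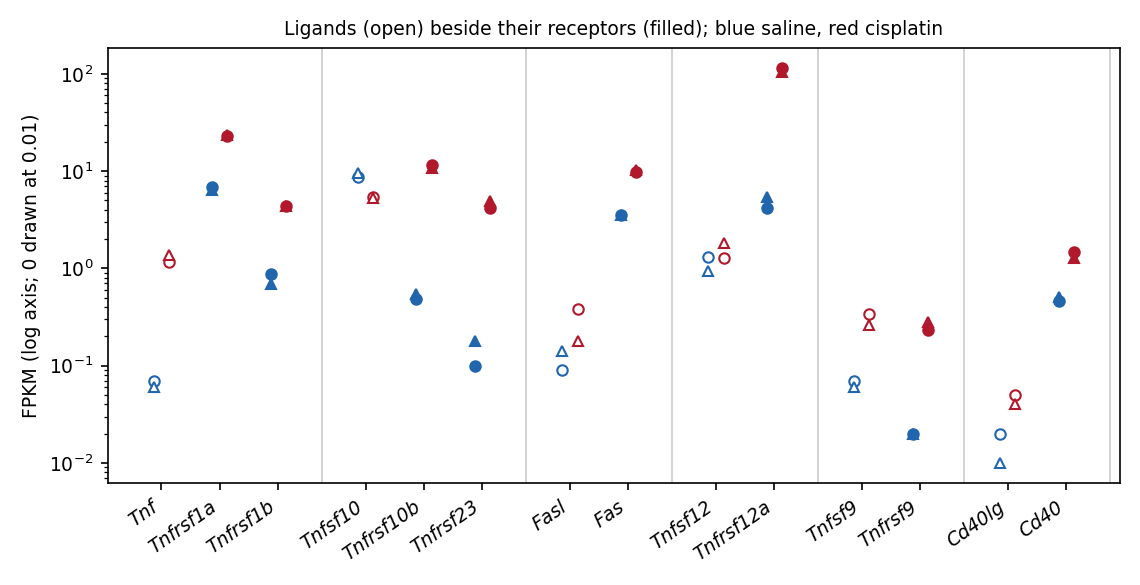
FPKM of ligand genes (open symbols) and of their receptors among the 9 (filled symbols) in each library, on a log axis; blue is saline, red cisplatin, circles replicate 1 and triangles replicate 2, and a value listed at 0 is drawn at 0.01. Tnfsf10 fell from 8.72 and 9.53 to 5.41 and 5.34 FPKM while Tnfrsf10b rose from 0.48 and 0.54 to 11.67 and 10.76, and Tnfsf12 overlapped between groups at 0.93 to 1.83.

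Adaptors and ubiquitin ligases that these receptors recruit showed smaller changes. Of 15 genes, all tested, 10 rose, 2 fell and 3 missed the threshold. Over all tested genes 37.2% were called higher and 36.4% lower. The median log2 fold change of the 15 was 0.39. The largest were Map3k14, the kinase NIK of the alternative NF-kB route, at 1.97 (SE 0.12), and Birc3, the ubiquitin ligase cIAP2, at 1.81 (SE 0.09). Birc3 went from 12.2 ± 0.206 to 42.7 ± 0.345 CPM (SD, n = 2). Rnf31, the catalytic subunit of the linear ubiquitin ligase, was at 0.93 (SE 0.12) and Birc2, which encodes cIAP1, at 0.58 (SE 0.06). Fadd, the death domain adaptor of Fas and Tnfrsf10b, stood at 10.2 and 10.3 against 12.2 and 8.56 CPM, with no change in the fit. Of the adaptors called lower, Tradd was at -0.47 (SE 0.16) and Ripk1 at -0.28 (SE 0.07). Tradd was not called without cisplatin replicate 2, neither was called with library size alone, where Ripk1 stood at 0.09, and with DESeq2 the list had 6 called higher and 1 lower.

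**Figure D5:**
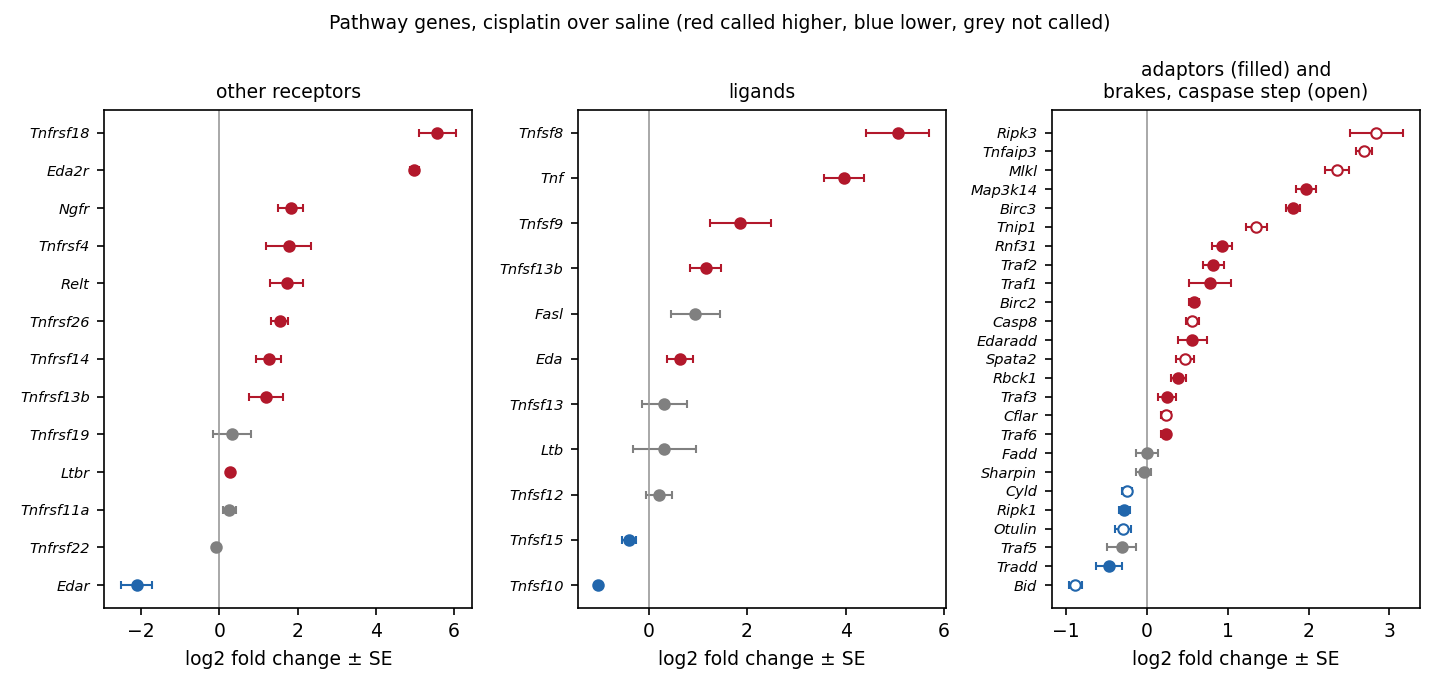
Log2 fold changes, cisplatin over saline, with 1 standard error, of tested genes of the other receptors, of 11 of the 12 tested ligands, and of the adaptors with the brakes and the caspase step. Eda2r, Tnfrsf18, Tnfsf8 and Tnf lie farthest to the right, at 4.99, 5.57, 5.06 and 3.97, and the adaptors lie nearer to 0, where Ripk1, Cyld and Otulin turn positive and Tnfrsf22 and Sharpin change sign with library size alone.

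Genes that restrain or carry out signalling below the receptors changed in either direction. Of 10 genes 7 rose and 3 fell, with a median log2 fold change of 0.52, where 73.6% of all tested genes were called in either direction. Tnfaip3, which encodes the NF-kB brake A20, rose from 7.74 and 7.33 to 49.7 and 47.2 CPM, a log2 fold change of 2.69 (SE 0.10). Its partner Tnip1 was at 1.35 (SE 0.13), and Mlkl, the pore-forming effector of necroptosis, at 2.35 (SE 0.15). Bid, the substrate through which caspase-8 engages mitochondria, fell by 0.89 on the log2 scale (SE 0.08). With library size alone Bid was the only gene of the list called lower, and without cisplatin replicate 2 or saline replicate 2 there were 2.

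Genes that control shedding of receptors and ligands from the cell surface were also split. Rhbdf2, which escorts the protease ADAM17 to the surface, rose from 3.57 and 3.56 to 24.5 and 26.0 CPM (log2 fold change 2.82, SE 0.13), and its relative Rhbdf1 was at 0.80 (SE 0.11). Timp3, the inhibitor of ADAM17, fell from 2507 and 2491 to 1079 and 1085 CPM (log2 fold change -1.21, SE 0.05). Adam10 was called lower at -0.39 (SE 0.06) and Adam17 at -0.21 (SE 0.07), calls that depended on the scaling. With library size alone Adam10 stood at -0.02 and Adam17 at 0.15, and neither passed. Adam17 was also not called without cisplatin replicate 1.

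Among tested genes averaging 5 CPM or more, those whose profile over the 4 libraries lay nearest to that of Tnfrsf1a were Arhgef4, Sox4 and Zscan25. Likeness was the Euclidean distance of log2 CPM centred on the saline mean, and these distances were 0.039, 0.053 and 0.063 among 11541 genes. For Tnfrsf23 they were Mt2 at 0.136, Epha2 at 0.146 and Ptgs2 at 0.301. With 4 libraries in 2 groups such likeness mostly restates a similar fold change.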

How the data were processed

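Whole kidney RNA of 2 cisplatin and 2 saline libraries was sequenced after ribosomal RNA depletion, per the labels' protocols. The authors deposited raw counts per gene and, in a second table, FPKM (fragments scaled by transcript length and library size); the submitters' processing notes name GRCm38, TopHat2, bcl2fastq and edgeR, without versions. The sources used here do not name the counting program or annotation release, nor whether strand was used. Of the gene IDs 99.2% matched GENCODE M21 once versions were dropped, and coordinates are from there.

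From the deposited counts, genes kept by filterByExpr (17419) were tested with edgeR 4.0.16 (quasi-likelihood F test, TMM scaling, R 4.3.3) with Benjamini-Hochberg adjustment over all of them and a threshold of 0.05. The standard error is the log2 fold change divided by the square root of F. With 2 residual degrees of freedom the spread is shared across genes. The model was tested on simulated data. Replicates of a group differed beyond sampling noise (chi-square per degree of freedom 11.5 for cisplatin, 36.6 for saline). Exact intervals and the floor of 3 counts cover counting error only. Upstream windows were read from RefSeq entries on GRCm38.p6.

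The 9 receptors and all lists were chosen with earlier results of these data known. In each pathway list the 4 tested genes of smallest p were named, with the ligands of the 9 receptors, and for Tnfrsf1a and the receptor of largest fold the 3 nearest genes of mean at least 5 CPM. Other named genes were chosen after their values were seen. The values of 1 ligand gene are not reported here. Alternatives were 3 scalings, 2 filters, the replicate number as a term, DESeq2 1.42.0, limma 3.58.1 on log2(FPKM + 0.1) and log2(FPKM + 1), each library left out, and, added after seeing the data, shares from counts per exon base.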

Additional observations from a re-analysis of the deposited data

How the results depend on the processing

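The 9 receptors kept their direction and call in all 116 alternatives run on them. Of these, 12 were of Tnfrsf9 and 13 of Tnfrsf23, which reached the main test through the cisplatin libraries alone. The filter on low counts fixed their direction there, so it is not a free result. Tnfrsf9 was not among the genes left by the filter of 1 CPM. The largest adjusted p was 0.00804, for Cd40 with limma on log2(FPKM + 0.1). Low genes moved most in size on the FPKM scale, Tnfrsf9 to 0.30 and Tnfrsf23 to 2.28 with a pseudocount of 1. Of all tested genes 6333 were called lower, against 4207 with library size alone, 3804 with FPKM and a pseudocount of 0.1, and 3784 with a pseudocount of 1. Leaving out 1 library gave 11490 to 12504 calls in place of 12820, and DESeq2 gave 10722. With library size alone, Tnfrsf22 reversed to 0.29, Ripk1 to 0.09, Sharpin to 0.32, Cyld to 0.11, Otulin to 0.06 and Adam17 to 0.15. With FPKM and pseudocounts of 0.1 and 1, Sharpin stood at 0.22 and 0.20, Cyld at 0.02 and 0.01, and Adam17 at 0.06 and 0.05. The cause was not tested. With the replicate number as a block, 12653 genes were called, 6382 higher and 6271 lower, and the 9 receptors were called as before, 8 higher and 1 lower. Deviations of same-numbered libraries correlated at -0.02, and whether such libraries shared a batch was not tested. Counts limit Tnfrsf9, Tnfrsf18, Tnfsf8 and Tnfsf9, whose saline libraries held at most 3 counts.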

Other observations

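Further receptors of the family lay at low levels, and Relt and Tnfrsf4 reached the test through the cisplatin libraries alone. Relt, a receptor of lymphoid tissue, had 28 and 30 counts after cisplatin against 7 and 8 after saline (log2 fold change 1.72, SE 0.43). Tnfrsf14, the receptor HVEM, had 49 and 52 against 17 and 19 (log2 fold change 1.27, SE 0.32). Tnfrsf4, the costimulatory receptor OX40, had 24 and 12 against 3 and 6, and without cisplatin replicate 1 its log2 fold change went from 1.77 to 1.13 and was no longer called. Tnfrsf11a, the receptor RANK, had 169 and 176 against 105 and 145, a log2 fold change of 0.26 (SE 0.16) that did not pass the test.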
